A study of Mus musculus with 57 samples.

Results

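The cells described here carried neither reporter. They came from Sox1-EGFP/FoxA2mCherry, a double reporter line of mouse embryonic stem cells (ESCs), were kept in retinoic acid (RA) medium for 2, 4 or 6 days (D2, D4 and D6) and were sorted by FACS as Sox1-FOXA2-. They were chosen by their sample titles alone, as the sorted Sox1-FOXA2- libraries of these 3 days with 3 replicates each and no replating after the sort, which gave 9 of the 57 bulk RNA-seq libraries of the series. The question was which genes changed over the time course in cells that showed neither the neuroectoderm nor the endoderm reporter, with D6 against D2 as the main contrast.

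All libraries share the genotype of the line, which is 1 clone. EGFP replaces the coding sequence of a Sox1 allele, so the cells have a single working Sox1 copy, and mCherry is joined to the 3′ end of FoxA2. Differentiation was in N2B27 with 1 uM RA, and the gates were set against R1WT cells, which have no reporter. The Sox1 reporter had been compared with SOX1 protein by immunostaining, and reporter and protein were correlated only weakly at D6. The paper proposes that EGFP may be decoupled from the protein by then, or that signals close to background made the measurement noisy. On every day the Sox1- gate is a gate on EGFP. As untreated reference serve 3 libraries of the same line kept in serum with LIF and sorted in the same gate (D0). The 9 Sox1+FOXA2- and the 9 Sox1-FOXA2+ libraries of D2, D4 and D6, treated alike, are used only to show where the time course differed. The numbered libraries of a group are described as biological replicates, without saying whether they were separate cultures or days, and the p-values measure the spread between them.

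Sox1 is the earliest marker of neuroectoderm, and Foxa2 is a transcription factor of endoderm and of the ventral neural tube. RA enters the nucleus and binds RAR-RXR receptor pairs that sit on direct repeats of a short half-site, many of them spaced by 5 bases. Direct targets include the RA-degrading enzyme Cyp26a1, the receptor Rarb and the first Hox genes, and the enzyme and receptor limit and prolong the response. In N2B27 with RA, ESCs leave pluripotency mostly toward neural progenitors and in part toward extraembryonic endoderm. A double negative gate is defined by what is missing from it, so it can hold undifferentiated cells, cells that have not yet turned on a reporter and cells of other kinds.

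The 9 libraries held between 29622483 and 50407863 counts in genes (median 37907793) with between 16568 and 25680 genes detected. Values are given below as counts normalised by DESeq2 size factors, per gene and not per length. The counts were taken over whole gene spans and without strand: all 824 protein-coding genes that lie wholly under genes of the other strand were at 0 in all 57 libraries, as were all 485 that lie wholly under genes of their own strand, against 331 of 11814 (2.8%) with no gene over them. A gene under another gene is therefore at 0 by counting, a gene partly under another is undercounted, and reads of a gene and its antisense partner cannot be told apart. Of the genes named below, Igf2r (32.5% of its span), Jun (21.6%), Hmga2 (20.5%), Ncam1 (18.3%), Nefm (15.3%), Sox17 (12.5%) and Nr2f2 (12.3%) lie under other genes over more than 10% of their span. For a gene with no gene over it, a count of 0 allows a level of up to 3 counts in the library, which is between 0.0595 and 0.101 CPM, counting error only. The libraries were made from small numbers of sorted cells, and RNA lost before sequencing is not part of this limit. The level in the cells can therefore be higher than it allows. The replicate 2 libraries of D4 and D6 stood apart from the rest. Mitochondrial genes took 3.67% and 6.82% of their counts, against 11.4% to 17.7% in the other 7 libraries. Genes spanning over 100 kb took 13.9% and 15.8% of their counts outside the mitochondria, against 17.3% to 27.6% elsewhere. The calls between D2 and D6 are also given without all libraries numbered 2, while values of single genes are mostly given with them alone.

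The gate was checked with Foxa2 (chr2:148042877-148046969, GRCm38, as are all gene positions below). It read 107, 0 and 0 normalised counts in the D2 libraries, 0, 2.08 and 188 at D4, and 142, 5.09 and 58.5 at D6, with a log2 fold change from D2 to D6 of 0.85 (SE 2.71, adjusted p = 0.999 by edgeR's quasi-likelihood test). In the Sox1-FOXA2+ libraries it lay between 1480 and 3240 on the 3 days, so the 2 gates did not overlap. Sox1 (chr8:12395295-12400126) lies wholly under another gene and is at 0 in every library, which says nothing about the gate. Of the other early endoderm factors, Sox17 reached at most 133 and Sox7 at most 269 normalised counts in any of the 9 libraries, and each was at 0 in 4 of them.

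The RA response is shown first, because it is the treatment that all 9 libraries share. The promoters of 3 of its genes are printed from RefSeq on GRCm38.p6, from 250 bases before to 50 bases after the annotated start, on the strand of the gene. Cyp26a1 and Rarb are shown because their promoters carry the repeat that RA receptors bind, and Stra8 because it is the gene of the list that passed the test between D2 and D6. Cyp26a1 lies at chr19:37697558-37697857 on the plus strand, Rarb at chr14:16575427-16575726 on the minus strand and Stra8 at chr6:34920698-34920997 on the plus strand. Capitals mark a direct repeat spaced by 5 bases, searched on both strands with the half-site AGGTCA, the related GGGTCA, or the forms of the Rarb repeat, GGTTCA before the spacer and AGTTCA after it, in any pairing, and in Stra8, which has no such repeat, the single half-site AGGTCA.
Cyp26a1: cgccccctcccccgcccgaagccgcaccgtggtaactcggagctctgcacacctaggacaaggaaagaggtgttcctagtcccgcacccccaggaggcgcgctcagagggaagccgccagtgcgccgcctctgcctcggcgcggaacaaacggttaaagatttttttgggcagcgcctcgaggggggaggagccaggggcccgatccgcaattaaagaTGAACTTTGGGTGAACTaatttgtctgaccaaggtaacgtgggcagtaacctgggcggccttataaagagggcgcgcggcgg
Rarb: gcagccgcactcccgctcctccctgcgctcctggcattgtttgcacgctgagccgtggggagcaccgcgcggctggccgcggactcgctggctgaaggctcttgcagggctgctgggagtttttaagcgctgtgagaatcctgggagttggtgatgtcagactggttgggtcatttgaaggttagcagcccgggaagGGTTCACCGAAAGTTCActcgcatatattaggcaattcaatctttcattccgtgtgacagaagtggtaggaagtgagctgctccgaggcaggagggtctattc
Stra8: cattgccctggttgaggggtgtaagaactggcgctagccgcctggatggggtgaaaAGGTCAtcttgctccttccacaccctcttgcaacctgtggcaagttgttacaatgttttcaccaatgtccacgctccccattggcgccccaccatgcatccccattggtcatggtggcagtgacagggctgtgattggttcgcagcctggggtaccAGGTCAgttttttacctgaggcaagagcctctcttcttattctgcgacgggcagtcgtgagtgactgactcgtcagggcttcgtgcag

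The repeat of Cyp26a1 runs from base -32 to base -16 before the start, in reverse orientation, and that of Rarb from -53 to -37. Of 32851 promoters of this length, 32 (0.0974%) hold such a repeat, while 14358 (43.7%) hold a half-site, so a half-site alone is common. Promoters were found for 12 of the 16 genes of the RA list, in 22 windows, of which 2 hold the repeat and 8 a half-site. A match describes these letters and is not a binding site.

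Cyp26a1, which degrades RA, was at 0, 0 and 16.5 normalised counts at D0 and at 3670, 4580 and 1320 at D2. At D4 it read 143, 341 and 2740, and at D6 196, 28.8 and 40.2. All 3 libraries of D6 lay below all 3 of D2, while D4 replicate 3 was still within the D2 range. The log2 fold change from D2 to D6 was -5.25 (SE 1.09, adjusted p = 0.0945), and with the replicate number as a block, the paired fit explained below, it was -5.56 (adjusted p = 0.0178). Cyp26a1 is outside the rule for named genes and was chosen after its values were seen. Rarb, the receptor, showed no such order: its levels were 3730, 781 and 2000 at D2, 1500, 1080 and 1910 at D4 and 2830, 266 and 2160 at D6, with overlapping days and a log2 fold change of -0.40 (SE 0.66, adjusted p = 0.989).

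Stra8, named for its stimulation by RA and known as the gatekeeper of meiosis in germ cells, was the most abundant gene of the list. It read 1290, 92.3 and 1110 normalised counts at D0, 46400, 36300 and 33500 at D2, 4520, 22700 and 24000 at D4 and 5250, 4590 and 6030 at D6. It fell from D2 to D6 by 2.95 on the log2 scale (SE 0.48, adjusted p = 0.0256), and every D6 library was below every D2 library while above every D0 library. Leaving out any of the 3 libraries of D6 ended the call (adjusted p = 0.138, 0.0579 and 0.0644 without replicates 1, 2 and 3), with log2 fold changes between -3.05 and -2.90. Aldh1a2, the enzyme that makes RA from retinal, went the other way late. It stood at 246, 294 and 412 at D2, at 92.1, 60.4 and 94.7 at D4 and at 3770, 1220 and 1860 at D6. It was the single gene called between D4 and D6, with a log2 rise of 4.73 (adjusted p = 0.018), and its D2 to D6 difference of 2.76 had an adjusted p of 0.0658 (0.0209 with the replicate block). The call between D4 and D6 was lost without D6 replicate 1 (adjusted p = 0.327), D4 replicate 2 (0.0691) or D4 replicate 3 (0.0939). The opposite courses of Stra8 and Aldh1a2 are visible in the plot of 8 RA-related genes by day.

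**Figure D1:**
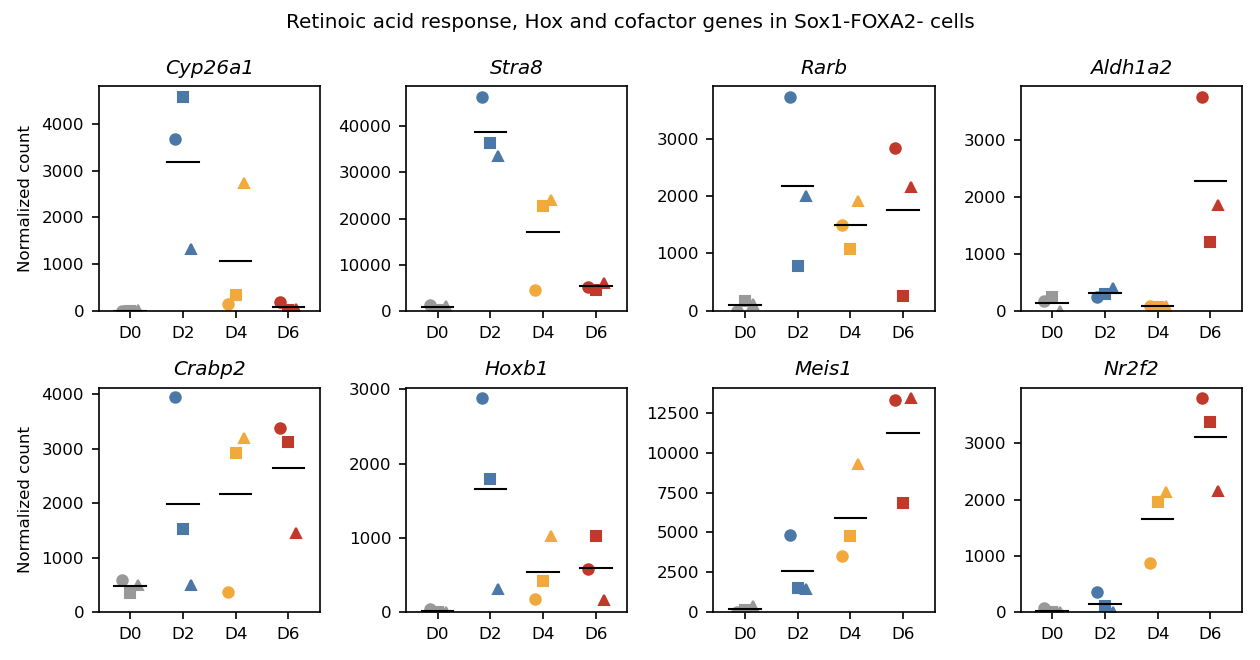
Normalised counts (linear axes from 0) of 8 RA-related genes in the Sox1-FOXA2- libraries at D0, D2, D4 and D6. Circles, squares and triangles are replicates 1, 2 and 3 and each bar is the mean of a day (n = 3 libraries). Stra8 goes from 33500 to 46400 at D2 to between 4590 and 6030 at D6, while Aldh1a2 goes from at most 94.7 at D4 to at least 1220 at D6.

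Over the whole RA list, 16 of 16 genes were tested: 1 fell and none rose, against 0.0146% and 0.0927% of all genes tested. The median log2 fold change from D2 to D6 was -0.54, against 0.06 over all genes tested. Crabp2, which carries RA to the nucleus, read 3940, 1530 and 506 at D2 and 3370, 3120 and 1460 at D6 (0.35, adjusted p = 0.999). Of the 39 Hox genes, which give cells their position along the body axis, 12 lie wholly under other genes and 17 could be tested. None passed the test and the median was -0.52. Of the 17, 15 had a negative log2 fold change, as had 9602 of all 20504 genes tested. Hoxb1 read 2880, 1790 and 316 at D2 and 581, 1030 and 168 at D6, so the days overlapped (log2 fold change -1.54, adjusted p = 0.71).

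Between D2 and D6, 22 of 20504 genes passed the test at an adjusted p of 0.05: 19 rose (0.0927%) and 3 fell (0.0146%). At an unadjusted p under 0.05 there were 1610 genes, 1069 of them higher at D6. The 3 libraries of D6 lay wholly above those of D2 for 1893 genes (9.23%) and wholly below for 1303 (6.35%). Same-numbered libraries of D2 and D6 deviated together from their day means in all 3 pairs, so the paired fit, with the replicate number as a block, is given beside this contrast. That fit holds all 9 libraries, D4 among them, although those of D4 did not all deviate with their number (correlation -0.173 between D2 and D4 for replicate 1). Libraries of unlike number were not compared, and the paired fit was not repeated with libraries left out. The Wald test of DESeq2 called 491 genes, among them all 22. The paired fit called 120 genes as higher (0.585%) and 32 as lower (0.156%), and all 22 genes called without the block were among them. The direction of these 22 was the same in every alternative run. When each library was left out in turn, 9 of the 22 kept the call each time (Ptn, Sox11, Cdh11, Acta2, Alcam, Anxa2, Flrt2, Igfbp5 and Aqp3), and 13 lost it at least once. The number of calls was 37 without D2 replicate 1, 13 without D2 replicate 2, 11 without D2 replicate 3 and 54 without D6 replicate 2. Without all libraries numbered 2 it was 43, and 17 of the 22 kept the call, while Anxa2, Marcks, Sorcs3, St3gal1 and Stra8 lost it (adjusted p between 0.0669 and 0.0987). A fit of D2 and D6 alone called 34 and 19 of the 22 (not Calcoco2, Fat4 or Frmd4a), and a linear trend over the days called 44 and 19 of the 22 (not Acta2, Igfbp5 or Peg3). In 1 fit of all 39 sorted libraries of the series, 4 genes passed the test and 3 of the 22 kept the call (Ptn, Peg3 and Frmd4a). A lower level in such bulk samples can mean fewer cells that express the gene or less RNA per cell, and the 2 cannot be told apart.

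**Figure D2:**
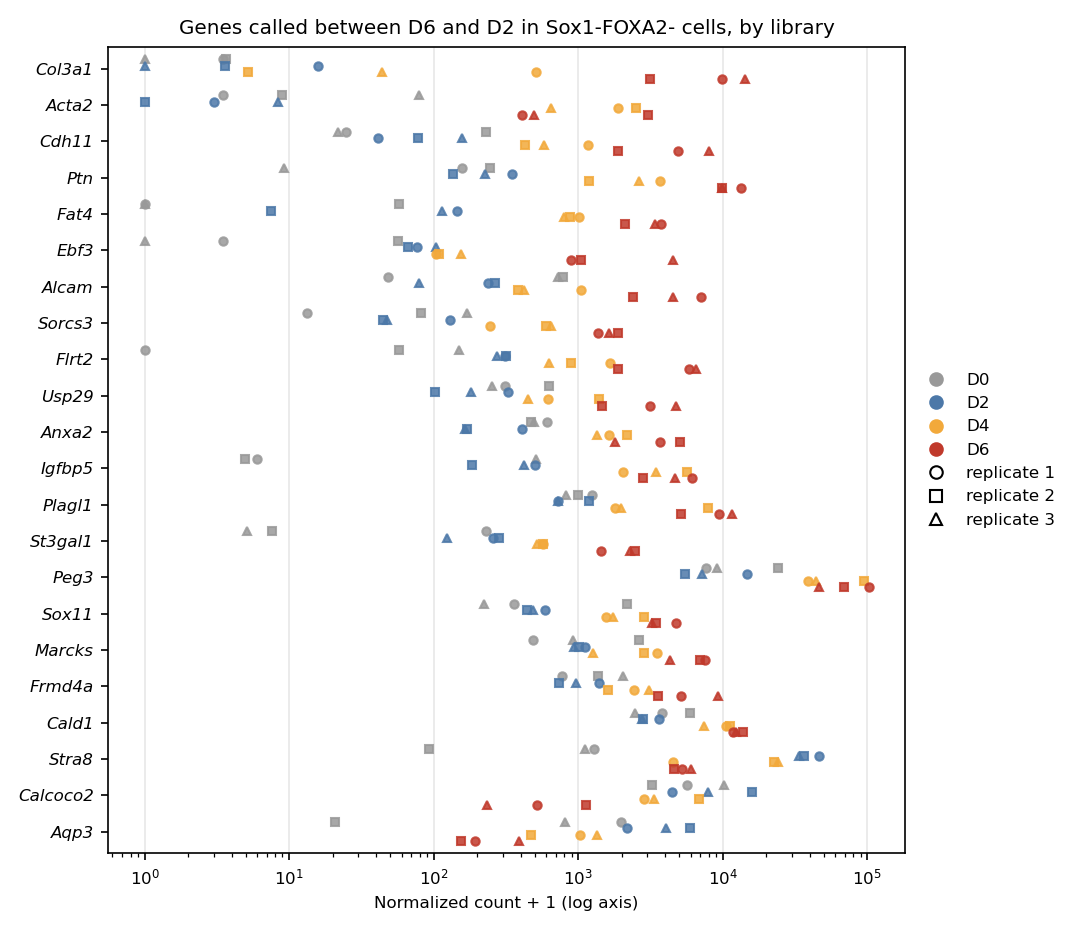
Normalised counts plus 1 (log axis) of each of the 22 genes called between D2 and D6, in the 12 Sox1-FOXA2- libraries, with days in colour and replicates as symbols. For each gene the 3 libraries of D6 lie wholly above or wholly below the 3 of D2.

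Among the genes that rose, Ptn (chr6:36714929-36810220), a secreted heparin-binding growth factor of the developing brain, had the smallest p. It read 348, 136 and 224 normalised counts at D2, 3670, 1180 and 2620 at D4 and 13300, 9820 and 9800 at D6, with D0 at 157, 244 and 8.27. The days did not overlap, and the log2 fold change from D2 to D6 was 5.47 (SE 0.48, adjusted p = 4.86e-04). Ptn was also the single gene called between D2 and D4, at 3.37 (adjusted p = 0.0473), a call that was lost without D4 replicate 1 (adjusted p = 0.0543), D2 replicate 2 (0.0561) or D2 replicate 3 (0.0905).

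Col3a1 (chr1:45311538-45349706), the fibrillar collagen of soft connective tissue, had the largest fold change. It was at 14.9, 2.58 and 0 at D2, at 512, 4.16 and 42.8 at D4 and at 9950, 3150 and 14200 at D6, a log2 fold change of 10.43 (SE 1.61, adjusted p = 0.024). Its D2 values rest on few counts, so the size of this fold is loosely set. The call was lost without D6 replicate 1 (adjusted p = 0.0538), D2 replicate 2 (0.0778) or D2 replicate 3 (0.0632). Acta2 (chr19:34241090-34255590), the actin of smooth muscle, was already high at D4. Its D2 values were 2.04, 0 and 7.39, its D4 values 1890, 2510 and 649 and its D6 values 405, 3050 and 491. The rise to D6 was 8.73 (SE 1.24, adjusted p = 0.014), and D4 against D2 was 9.13 with an adjusted p of 0.0502, while D4 and D6 overlapped.

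Cald1, which with tropomyosin regulates actin filaments, had the narrowest error of the genes that rose. It stood at 3630, 2790 and 2760 at D2, at 10600, 11200 and 7450 at D4 and at 11800, 13900 and 12300 at D6 (log2 fold change 1.98, SE 0.25, adjusted p = 0.00887, and 0.0512 without D2 replicate 3). Anxa2, a membrane and actin binding protein, went from 406, 170 and 163 at D2 to 3680, 5020 and 1790 at D6 (3.76, adjusted p = 0.0091, and 0.0669 without all libraries numbered 2). Marcks, which links actin to the membrane, rose by 2.54 (adjusted p = 0.0182) and the scaffold Frmd4a by 2.45 (adjusted p = 0.0256). Both calls were lost without D6 replicate 1 (adjusted p = 0.0833 and 0.0712), D2 replicate 2 (0.0785 and 0.151) or D2 replicate 3 (0.0859 and 0.11), and that of Frmd4a also without D6 replicate 3 (0.0644). Tpm1, the tropomyosin that acts with Cald1, differed by 2.18 (adjusted p = 0.0676), and passed the test in the paired fit (2.05, adjusted p = 5.68e-04). It was chosen after its values were seen.

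Several genes that rose encode adhesion and guidance proteins. Cdh11 (chr8:102632095-102785642), the cadherin of mesenchyme, read 40.1, 76.8 and 157 at D2, 1160, 427 and 580 at D4 and 4930, 1890 and 7990 at D6 (log2 fold change 5.67, SE 0.68, adjusted p = 0.00869). Fat4, a giant protocadherin, stood at 144, 6.46 and 113 at D2 and at 3710, 2110 and 3420 at D6 (5.06, adjusted p = 0.0256). Alcam, an immunoglobulin-type adhesion molecule, went from 236, 263 and 77.6 to 7020, 2390 and 4500 (4.5, adjusted p = 0.0091). Flrt2, a ligand of Unc5 guidance receptors, rose by 3.90 (adjusted p = 0.00887) and the sorting receptor Sorcs3 by 4.4 (adjusted p = 0.0174). The call of Fat4 was lost without D6 replicate 1 (adjusted p = 0.0833) or D2 replicate 3 (0.0744), and that of Sorcs3 without D2 replicate 2 (0.0778) or D2 replicate 3 (0.0744). In each of these 5 genes the D4 libraries lay above all D2 libraries, as in 890 of all 20504 genes tested. The 5 were named for their rise from the same D2 libraries.

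Axon guidance genes were not read as a list. Among them the paired fit added the ligand Slit2, its receptor Robo2 and the semaphorin receptor Nrp1, all chosen after their values were seen. That fit called 0.585% of all genes tested as higher, and 61.7% of those called higher span over 100 kb. Slit2 read 738, 616 and 1310 at D2, 676, 219 and 367 at D4 and 7670, 2370 and 6790 at D6, so the difference lay between D4 and D6. Without the block its log2 fold change was 2.57 (adjusted p = 0.0755), and with it 2.43 (adjusted p = 0.00215). Robo2 differed by 2.72 without the block (adjusted p = 0.462) and by 3.21 with it (adjusted p = 0.0203). Nrp1 went from between 227 and 332 at D2 to between 1330 and 2910 at D6, at 2.91 without the block (adjusted p = 0.0638) and 2.81 with it (adjusted p = 0.00504).

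Growth factor binding and transcription made up most of the rest. Igfbp5, which binds insulin-like growth factors, read 500, 182 and 423 at D2, 2030, 5610 and 3470 at D4 and 6150, 2820 and 4650 at D6 (log2 fold change 3.54, adjusted p = 0.0105). Sox11, a transcription factor of neural progenitors and early neurons, stood at 584, 439 and 482 at D2, at 1560, 2840 and 1730 at D4 and at 4750, 3460 and 3240 at D6 (2.85, SE 0.35, adjusted p = 0.00869). Its days did not overlap. Ebf3, a transcription factor of neurons and mesoderm, showed its difference late: 76.1, 65.9 and 102 at D2, 102, 108 and 153 at D4, then 896, 1050 and 4560 at D6 (4.65, adjusted p = 0.0182). The call was lost without D6 replicate 3 (adjusted p = 0.221), D2 replicate 2 (0.0785) or D2 replicate 3 (0.0632). The sialyltransferase St3gal1 rose by 3.15 (adjusted p = 0.0182), which was lost without D2 replicate 2 (0.0613), D2 replicate 3 (0.0859) or D6 replicate 3 (0.0538). Hmga2, a chromatin protein of stem and fetal cells that was chosen after its values were seen, differed by 2.80 (adjusted p = 0.0602) and passed in the paired fit (2.94, adjusted p = 3.43e-04); 20.5% of its span lies under other genes.

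Of the genes that rose, 3 are imprinted, that is, expressed from the copy of a single parent. Peg3 (chr7:6703892-6730431, minus strand) is a paternally expressed zinc finger gene, and Usp29 (chr7:6730578-6967219, plus strand) starts beside it and is read the opposite way. Peg3 read 14800, 5500 and 7170 at D2, 38600, 94500 and 44200 at D4 and 102000, 68400 and 46000 at D6 (log2 fold change 2.90, SE 0.46, adjusted p = 0.0256). Usp29 stood at 327, 101 and 181 at D2, at 618, 1390 and 446 at D4 and at 3140, 1460 and 4720 at D6 (3.85, adjusted p = 0.0256). In both genes all D4 and D6 libraries were above all D2 libraries. Over all 20504 genes tested, the D4 libraries lay wholly above D2 in 890. Plagl1, a zinc finger regulator of other imprinted genes, went from 728, 1180 and 721 at D2 to 9380, 5180 and 11500 at D6 (3.22, adjusted p = 0.0461). These calls leaned on single libraries. That of Plagl1 was kept without D6 replicate 2 and lost without each of the other 5 (adjusted p up to 0.143). That of Usp29 was lost without D6 replicates 1 or 3 or D2 replicates 2 or 3 (adjusted p up to 0.0989). That of Peg3 was lost without D6 replicate 1 or D2 replicates 2 or 3 (adjusted p up to 0.0989).

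H19, a maternally expressed non-coding RNA, was higher in every D4 and D6 library than in any at D2. It stood at 6740, 15200 and 4130 at D2, at 39800, 108000 and 60000 at D4 and at 52200, 70600 and 34700 at D6. Its log2 fold change of 2.52 had an adjusted p of 0.0755, and with the block it was 2.66 (adjusted p = 8.83e-05). Of the 15 imprinted genes listed, 13 were tested and 2 lie wholly under other genes. Of the 13, 2 rose (Peg3 and Plagl1, against 0.0927% of all genes tested) and none fell, and the median was 0.68. Usp29 is not on that list. The members did not share a direction: the growth-restraining receptor Igf2r read 5870, 5480 and 6350 at D2 and 3650, 1610 and 3800 at D6 (-1.05, adjusted p = 0.543), and Peg10 and Mest differed by 0.68 and 0.38 (adjusted p = 0.879 and 0.962).

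Besides Stra8, 2 genes fell. Aqp3, a water and glycerol channel of epithelia, read 2160, 5940 and 4060 at D2, 1020, 473 and 1340 at D4 and 192, 153 and 391 at D6 (log2 fold change -4.14, SE 0.54, adjusted p = 0.00887). Its 3 days did not overlap. Calcoco2, an autophagy receptor, stood at 4440, 15800 and 7860 at D2, at 2860, 6850 and 3330 at D4 and at 514, 1130 and 232 at D6 (-3.97, SE 0.63, adjusted p = 0.0256). The call was lost without D6 replicate 1 (adjusted p = 0.141) or D2 replicate 2 (0.055). Kit, the stem cell factor receptor, differed by -1.85 (adjusted p = 0.211) and was called with the block (-1.88, adjusted p = 0.0366). It was chosen after its values were seen.

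Long genes were frequent among the genes called higher. The median span was 93 kb for the 19 that rose, 12.6 kb for the 3 that fell and 23.7 kb for all genes tested. Of the 19, 8 span over 100 kb, and of the 120 higher in the paired fit 74 do (61.7%), against 2784 of the 20504 tested (13.6%). Of the 32 lower in the paired fit, 1 does (3.12%). The 2784 long genes had a median log2 fold change of 0.40 and the other 17720 one of 0.02. The share of counts in long genes was 23.3%, 15.8% and 27.6% in D6 replicates 1, 2 and 3 and between 17.3% and 21.1% at D2. Acta2, Peg3, Igfbp5, Sox11 and Col3a1 are among the genes that rose with a span under 100 kb. The part of gene length in these calls was not tested.

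The time course was not even for all genes. Between D2 and D4, 1 gene rose (Ptn, 0.00488%), none fell (0%) and 1065 had an unadjusted p under 0.05. Between D4 and D6, 1 rose (Aldh1a2, 0.00488%), none fell (0%) and 1295 had an unadjusted p under 0.05. By the Wald test of DESeq2, 226 genes passed in the first step, 68 of them lower, and 185 in the second, 42 of them lower. Acta2, Igfbp5 and Peg3 had most of their D2 to D6 difference by D4, with log2 fold changes of 9.13, 3.32 and 2.69 in the first step (adjusted p = 0.0502, 0.0567 and 0.132). Over the alternatives these values ran from 8.05 to 10.6, from 2.53 to 3.62 and from 1.87 to 3.2. Without the libraries numbered 2 the adjusted p of Peg3 in this step was 0.712. Ebf3 and Slit2 had it between D4 and D6. Of the 20504 genes, 10893 had a positive log2 fold change over the whole course, and the median was 0.06.

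Genes were then read by lists of cell type and pathway, which were chosen with earlier results of these data known. The neural crest and mesenchyme list had the highest median of the 25 lists. Of its 15 genes 14 were tested, and 2 rose (Col3a1 and Acta2), against 0.0927% of all genes tested. Of the 14, 13 had a positive log2 fold change, as had 53.1% of all genes tested, and the median was 3.64. In 10 the D6 libraries lay wholly above those of D2, where 9.23% of all genes did. Its summed normalised counts lay between 599 and 1080 at D2, 1450 and 6050 at D4 and 11600 and 24500 at D6, with 440 to 889 at D0. At D6 they lay between 3300 and 4680 in Sox1+FOXA2- cells and between 2060 and 5010 in Sox1-FOXA2+ cells, a difference in list level that was not tested. The collagen gene Col1a1 read 76.1, 1.29 and 79.5 at D2 and 2110, 528 and 2850 at D6 (5.04, adjusted p = 0.483), and Col1a2 193, 25.8 and 0 against 1530, 558 and 3380 (4.55, adjusted p = 0.462). Twist1, a transcription factor of mesenchyme, stood at 149, 189 and 37.0 at D2 and at 1100, 1960 and 685 at D6 (3.25, adjusted p = 0.24). The block called Twist1 and Col1a2 (adjusted p = 0.012 and 0.0475) but not Col1a1 (0.0625). Foxd3, a defining factor of neural crest, was at 0 in all 9 libraries, and Pdgfrb differed by 0.94 (adjusted p = 0.883).

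In the list of epithelial genes and the cadherin switch, 12 of 12 genes were tested and 1, Cdh11, rose, against 0.0927% of all genes tested. Cdh1, the epithelial cadherin, read 3840, 5380 and 4980 at D2, 6880, 419 and 3110 at D4 and 2880, 2660 and 1580 at D6. The last were all below D2, with a log2 fold change of -1.07 and an adjusted p of 0.782. Cdh2, the cadherin of neural cells and mesenchyme, went from 3680, 1860 and 1630 at D2 to 9710, 3530 and 15900 at D6 (1.93, adjusted p = 0.24, and 1.77 with adjusted p = 0.0209 in the paired fit), and the days overlapped. Zeb2, a repressor of Cdh1 chosen after its values were seen, differed by 2.63 (adjusted p = 0.0985) and passed with the block (adjusted p = 0.0393). Zeb1 differed by 0.22 (adjusted p = 0.994). The simple epithelial keratins had positive differences too: Krt18 read 1940, 1000 and 59.1 at D2 and 2740, 11300 and 4150 at D6 (2.54, adjusted p = 0.55), and Krt8 differed by 2.08 (adjusted p = 0.605).

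Of the 24 neural progenitor genes 16 were tested, and 2 rose (Ptn and Sox11), against 0.0927% of all genes tested. The median log2 fold change was 1.81, and 13 of the 16 were positive, as were 53.1% of all genes tested. In 5 of them all D6 libraries lay above all D2 libraries, as in 9.23% of all genes tested. The summed level lay between 10500 and 13600 at D0, 8050 and 13400 at D2, 21500 and 28100 at D4 and 46800 and 51800 at D6. The Sox1+FOXA2- libraries lay between 12000 and 28900 at D2, 34000 and 84400 at D4 and 23200 and 46300 at D6. The Sox1-FOXA2- libraries were thus all below them at D4 and all above them at D6, a difference in list level that was not tested. Ptn, Vim and Cdh2 made up much of the Sox1-FOXA2- level at D6, and mesenchyme shares Vim and Cdh2. Sox1 adds nothing to the level, by counting. Vim, an intermediate filament that neural progenitors and mesenchyme share, read 2510, 1490 and 2980 at D2, 10100, 12800 and 4540 at D4 and 13100, 20100 and 7400 at D6 (2.48, adjusted p = 0.0616, and 2.28 with adjusted p = 0.00798 in the paired fit). Nes, the filament of neural progenitors, differed by 1.41 (adjusted p = 0.442) and Ncam1 by 1.18 (adjusted p = 0.771), and in both the days overlapped. Of the regional factors, Pax6 read 849, 487 and 479 at D2 and 799, 297 and 723 at D6 (-0.08, adjusted p = 0.999), and Nkx6-1 was at 0 in all 9 libraries.

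The neuronal list had 12 of 20 genes tested and none called, with a median of 0.76. Of the 20, 3 lie wholly under other genes and are at 0 by counting. Nefm, a neurofilament subunit, read 144, 183 and 33.3 at D2, 222, 514 and 257 at D4 and 1890, 1940 and 1090 at D6 (3.69, adjusted p = 0.0676, and 3.89 with adjusted p = 0.00531 in the paired fit). Elavl4, an RNA-binding protein of neurons, stood at 350, 270 and 370 at D2 and at 880, 397 and 4020 at D6 (2.32, adjusted p = 0.508), so D6 replicate 3 held most of it, and Map2 was also highest there at 4930 against 1190 and 1020. Neural and mesenchymal genes were both among the genes that rose, and bulk libraries do not show whether the same cells held both.

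Among the Meis, Pbx and COUP-TF factors, partners and downstream factors of Hox and RA, 12 of 12 genes were tested, none was called and the median was 0.88. Meis1 read 4840, 1530 and 1440 at D2, 3540, 4810 and 9280 at D4 and 13300, 6870 and 13400 at D6 (2.03, adjusted p = 0.189), and Nr2f2, chosen after its values were seen, 363, 105 and 3.7 at D2 against 3800, 3380 and 2150 at D6 (4.24, adjusted p = 0.16). Both passed in the paired fit (adjusted p = 0.0208 and 0.0196), and both had all D6 libraries above D2. Meis2 differed by 1.35 (adjusted p = 0.654).

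Pluripotency genes were still present at D6. Of 14 naive pluripotency genes, all tested, none was called and the median was -0.57. Of the 14, 11 were negative, as were 9602 of all 20504 genes tested. Zfp42 read 26000, 8470 and 24200 at D0, 4120, 9730 and 11800 at D2 and 4140, 6140 and 9150 at D6 (-0.49, adjusted p = 0.966). Nanog stood at 1450, 7020 and 4730 at D2 and at 2820, 4090 and 1760 at D6 (-0.68, adjusted p = 0.933), and Esrrb differed by -0.15 (adjusted p = 0.999). The summed level of the list lay between 14800 and 42000 at D2 and between 20500 and 25500 at D6, with 29700 to 96100 at D0, so D2 and D6 overlapped. At D6 it lay between 6380 and 22600 in Sox1+FOXA2- cells and between 16800 and 19400 in Sox1-FOXA2+ cells. The level is thus not particular to this gate, and differences between gates were not tested. Of 13 core and formative genes 12 were tested and none was called. The gene left out, Sox2, lies wholly under another gene and is at 0 by counting, so its level is not known. Sall4, a zinc finger factor of ESCs, read 9270, 11400 and 7420 at D2 and 3760, 6940 and 2020 at D6 (-1.21, adjusted p = 0.477, and -1.34 with adjusted p = 0.0202 in the paired fit).

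The 2-cell-like list, genes of the cleavage embryo that a small share of ESCs turns on, had a median of -2.67 over 13 genes. None was called and 12 were negative, as were 9602 of all 20504 genes tested. The paired fit called Zscan4a, Zscan4d, Zscan4e and Usp17lc as lower, where it called 0.156% of all genes tested as lower. Zscan4e read 5040, 7940 and 1510 at D2, 424, 5370 and 1040 at D4 and 470, 1190 and 407 at D6 (-2.87, adjusted p = 0.383, and with the block 0.0076). These genes are near-identical copies, so how their reads were shared out is uncertain. The summed level ran from 922 to 15700 at D0, from 7690 to 55700 at D2 and from 4090 to 11600 at D6, so D2 and D6 overlapped.

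No marker of extraembryonic endoderm passed the test: of 23 genes 20 were tested, and the median was 0.31. Lamb1 and Col4a1, basement membrane genes that parietal endoderm makes in bulk, differed by 0.03 and -0.08 (adjusted p = 0.999 for both). Sparc read 4240, 2240 and 2320 at D2 and 9020, 8220 and 6240 at D6 (1.34, adjusted p = 0.128, and 0.0102 with the block). Pdgfra, which mesenchyme also expresses and which was chosen after its values were seen, went from 103, 59.4 and 177 to 1560, 694 and 1740 (3.47, adjusted p = 0.124, and 0.049 with the block). Ttr was at 0 in all 9 libraries, and the summed level of the list lay between 13500 and 22000 at D2 and between 23400 and 30200 at D6, so the days did not overlap. Sparc and Pdgfra are part of this sum, and the difference in list level was not tested. In Sox1-FOXA2+ cells the summed level lay between 45000 and 98100 at D2 and between 1080000 and 2210000 at D6. Of 10 mesendoderm genes 6 were tested and none was called.

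**Figure D3:**
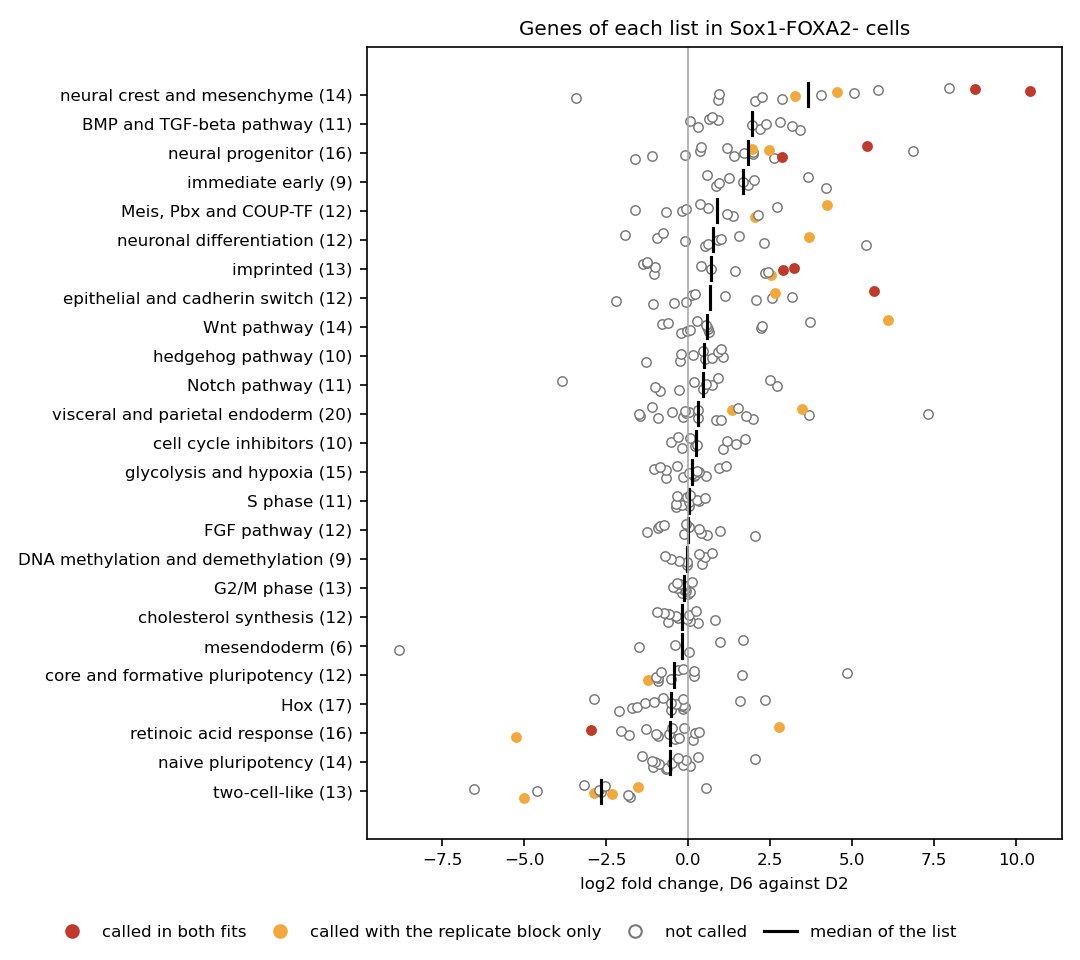
Log2 fold change from D2 to D6 of every tested gene of the 25 lists in Sox1-FOXA2- cells, with the number tested in parentheses. Red points passed the test in both fits, yellow points in the paired fit alone and open points in neither; black bars are list medians, which run from -2.67 for 2-cell-like genes to 3.64 for neural crest and mesenchyme genes.

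Signalling lists gave few calls. No gene of the BMP and TGF-beta list passed the test in either fit. All 11 tested were positive (median 1.94), as were 53.1% of all genes tested. Of the 11, 3 were higher at D6 with an unadjusted p under 0.05, as were 1069 of all 20504 genes tested. Id2, a target of BMP, read 404, 159 and 61.0 at D2 and 529, 1850 and 91.3 at D6 (1.94, adjusted p = 0.667), and the feedback inhibitor Smad7 stood at 409, 974 and 1240 and at 1520, 1820 and 1870 (0.91, adjusted p = 0.67). In the Wnt list 14 genes were tested and none was called, while the paired fit called the Wnt enhancer Rspo3, which was chosen after its values were seen: 35.3, 6.46 and 5.54 at D2, 174, 35.4 and 10.7 at D4 and 1580, 602 and 1240 at D6 (6.08, adjusted p = 0.0784, and 6.68 with adjusted p = 0.00413). Notch, hedgehog and FGF genes had medians of 0.47, 0.48 and -0.02 over 11, 10 and 12 genes, with none called in either fit. The receptor Notch2 differed by -0.28 and the hedgehog effector Gli3 by 0.15 (adjusted p = 0.987 and 0.994). All 9 immediate early genes tested were positive (median 1.68), against 53.1% of all genes tested, and none was called. Jun read 675, 443 and 510 at D2 and 2230, 2730 and 1060 at D6 (1.82, adjusted p = 0.422).

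No gene on the lists of growth and metabolism was called in either fit. S phase genes had a median of 0.02 over 11 genes, G2/M genes of -0.13 over 13, glycolysis and hypoxia genes of 0.12 over 15, cholesterol synthesis genes of -0.17 over 12, DNA methylation genes of -0.04 over 9 and cell cycle inhibitors of 0.25 over 10. Of the 12 cholesterol synthesis genes 5 had all D6 libraries below all D2 libraries, as had 6.35% of all genes tested. Of the 12, 2 were lower at D6 with an unadjusted p under 0.05, as were 541 of all 20504 genes tested. Dnmt1, the maintenance methyltransferase, read 10400, 12300 and 10000 at D2 and 10600, 12800 and 10300 at D6, and its log2 difference of -0.04 had an SE of 0.22. Top2a, a topoisomerase of dividing cells, read 35800, 40400 and 38000 at D2 and 35600, 34900 and 34400 at D6 (-0.20, SE 0.23, adjusted p = 0.975).

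The same D2 to D6 change was then set against that of the other gates, in a fit of 27 libraries and 26402 genes. Against Sox1+FOXA2- cells no gene differed in either direction (0%) by edgeR's quasi-likelihood test, 1140 genes had an unadjusted p under 0.05 and the smallest adjusted p was 0.366, of Igfbp4. By the Wald test of DESeq2 on these libraries, 590 genes passed. The difference in log2 change for Igfbp4, a binding protein of insulin-like growth factors, was 3.03 (SE 0.59): it was 2.30 in Sox1-FOXA2- cells and -0.72 in Sox1+FOXA2- cells. For Ptn the change was 5.44 and 1.54 and for Peg3 2.88 and 0.41 (adjusted p of the difference = 1 for both). Col3a1 stood between 74.0 and 241 normalised counts in Sox1+FOXA2- cells at D6, against 3150 to 14200 in Sox1-FOXA2- cells, with a difference in log2 change of 8.56 (SE 2.08, adjusted p = 1). Fbn2, a microfibril protein of the fetal matrix, read 3560, 1720 and 1270 at D2 and 10800, 6520 and 8310 at D6 in Sox1-FOXA2- cells, and its difference in log2 change was 2.22 (SE 0.56, adjusted p = 1). Acta2 rose in Sox1-FOXA2- cells and had 8.07 in Sox1+FOXA2- cells (adjusted p = 0.115), a difference of 0.63 (SE 2.23, adjusted p = 1). Stra8 fell in both gates, by 2.99 and by 3.32 on the log2 scale (adjusted p = 0.0146 and 0.0387). In the same fit it also fell in Sox1-FOXA2+ cells, with a log2 fold change of -4.87 (adjusted p = 1.06e-05). Leaving out a library in turn gave 1 gene without D6 Sox1+FOXA2- replicate 1 and none otherwise.

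Against Sox1-FOXA2+ cells the change differed for 65 genes: it was higher in Sox1-FOXA2- cells for 31 (0.117%) and lower for 34 (0.129%). For Ptn the change was 5.44 against -2.66, a difference of 8.09 (SE 1.02, adjusted p = 6.48e-05). Peg3 had 2.88 against -0.78 (difference 3.66, adjusted p = 0.00134), Sox11 2.81 against -1.12 (difference 3.94, adjusted p = 0.0032) and Igfbp5 3.51 against -1.79 (difference 5.30, adjusted p = 2.16e-04). Cdh2 had a log2 fold change of -2.42 in Sox1-FOXA2+ cells (adjusted p = 0.0119), against 1.89 in Sox1-FOXA2- cells (adjusted p of the difference = 0.00295). Among the genes with a lower change, Lamc1 and Lama1, laminin chains of basement membrane, had -0.23 and -0.52 in Sox1-FOXA2- cells against 4.15 and 4.68 in the FOXA2+ gate (adjusted p of the difference = 2.16e-04 for both), and Lrpap1, the chaperone of endocytic LDL-type receptors, had -1.09 against 3.24 (adjusted p = 5.71e-05). Sparc, called in the paired fit of the Sox1-FOXA2- cells, changed by 1.31 there against 4.5 (difference -3.19, adjusted p = 0.00807). Each of these genes kept its call when any of the 12 libraries of D2 and D6 was left out. The number of calls was 40 without D2 Sox1-FOXA2- replicate 3, 98 without D6 Sox1-FOXA2+ replicate 1 and 113 without D6 Sox1-FOXA2+ replicate 3. In the fit of all 39 libraries 23 genes differed, and Igfbp5, Sox11 and Sparc were not among them (adjusted p = 0.159, 0.127 and 0.0768).

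**Figure D4:**
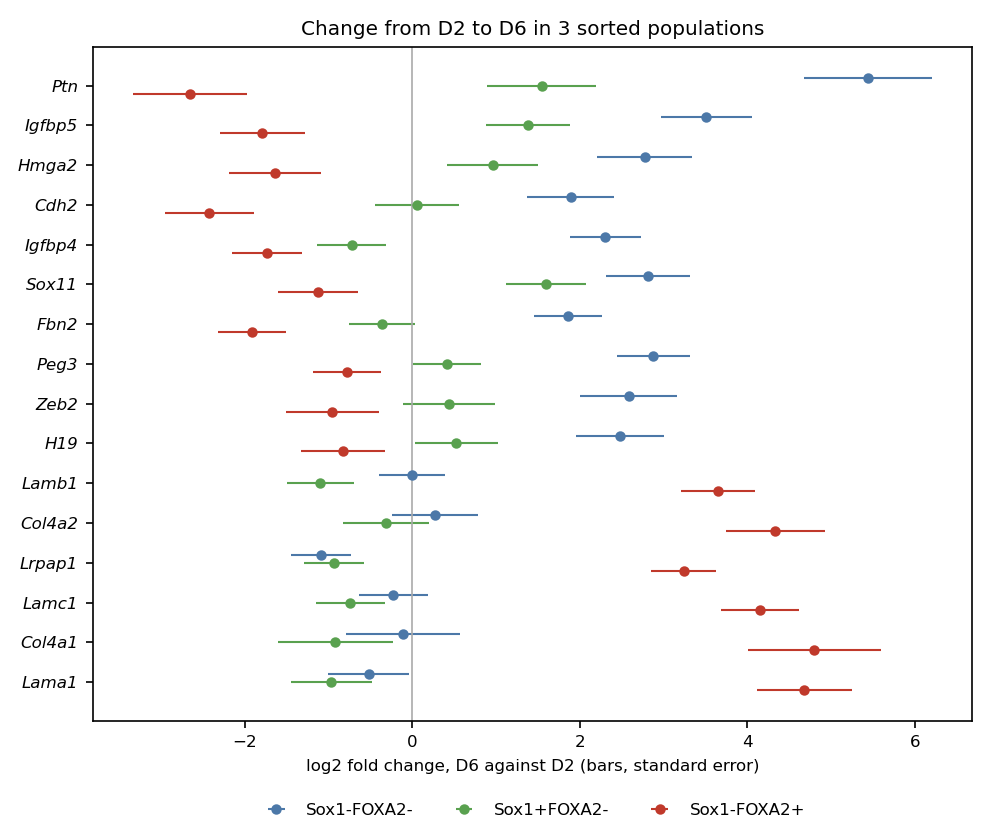
Log2 fold change from D2 to D6 of 16 named genes whose change differed between Sox1-FOXA2- and Sox1-FOXA2+ cells, in 3 sorted populations (points, with bars of 1 standard error). Ptn is at 5.44 in Sox1-FOXA2- cells, 1.54 in Sox1+FOXA2- cells and -2.66 in Sox1-FOXA2+ cells, and the laminin and collagen genes at the bottom are high in Sox1-FOXA2+ cells, with Lama1 at 4.68.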

How the data were processed

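Sorted cells were profiled by bulk RNA-seq with SMART-Seq Stranded libraries. The deposited values are raw counts per gene, which the authors made with STAR and featureCounts on GENCODE mouse release M21 (GRCm38), with versions and settings not given in the sources used here. The 92 lines naming no gene carry 0 counts.

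Groups came from the sample titles. Tests were edgeR 4.0.16 quasi-likelihood tests (R 4.3.3, limma 3.58.1) with TMM normalisation, filterByExpr (minimum count 10, total 15), a prior count of 0.125 and Benjamini-Hochberg adjustment at 0.05 over all genes tested, on 9 libraries for the days and 27 for the gates. The SE is the log2 fold change divided by the square root of F. Normalised counts used DESeq2 1.42.0 size factors over all 57 libraries. The code was tested on simulated data.

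Same-numbered D2 and D6 libraries had correlated deviations over the 5000 genes with the highest mean (0.179, 0.355 and 0.278 for replicates 1, 2 and 3, all over 0.1), so the number was taken to pair them, although no label says what it stands for. The block was fitted on all 9 libraries, D4 among them.

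The members, the 25 lists (371 of 372 genes found) and the rule for named genes were chosen with earlier results of these data known. The rule takes up to 10 genes of the largest change each way with an adjusted p under 0.05, a mean of at least 50 and days that do not overlap, list genes that were called, up to 4 other abundant genes of each list, and the 5 of smallest p in each difference between gates. The other called genes, and Pax6, Nkx6-1, Sox17, Sox7, Ttr, Foxd3, Zscan4a, Usp17lc and those marked in the text, were named after their values were seen. Alternatives were DESeq2's Wald test, no filter, DESeq2 size factors in edgeR, the replicate block, other sets of libraries in the fit, a linear trend over days, each library left out, and, chosen after seeing the data, all libraries numbered 2 left out. Values of some single genes that count in the lists are not reported here.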

Additional observations from a re-analysis of the deposited data

Results flagged for a closer look

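The change from D2 to D6 was tested against that in Sox1-FOXA2+ cells, by an interaction term in 1 edgeR fit of 27 libraries, and differed for 65 genes at an adjusted p of 0.05. The genes named here are those of the 65 that the text describes elsewhere or that belong to its lists of cell types, apart from genes not reported here.

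The change was higher in Sox1-FOXA2- cells for Ptn (difference in log2 change 8.09, adjusted p = 6.48e-05), Igfbp5 (5.30, adjusted p = 2.16e-04), the chromatin protein Hmga2 (4.41, adjusted p = 0.00383), Cdh2 (4.31, adjusted p = 0.00295), Igfbp4 (4.04, adjusted p = 5.01e-04), Sox11 (3.94, adjusted p = 0.0032), the microfibril gene Fbn2 (3.77, adjusted p = 7.52e-04), Peg3 (3.66, adjusted p = 0.00134), Zeb2 (3.54, adjusted p = 0.0459) and H19 (3.31, adjusted p = 0.033).

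Of the genes for which it was lower, those named are Lama1 (-5.20, adjusted p = 2.16e-04), Col4a1 (-4.91, adjusted p = 0.0216), Lamc1 (-4.38, adjusted p = 2.16e-04), Lrpap1 (-4.33, adjusted p = 5.71e-05), Col4a2 (-4.06, adjusted p = 0.00594), Lamb1 (-3.65, adjusted p = 0.00113) and Sparc (-3.19, adjusted p = 0.00807). When each of the 12 libraries of D2 and D6 was left out in turn, H19 kept the call in 9 of 12 fits, Zeb2 in 5, Col4a1 in 11 and the other genes named here in all 12.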

How the results depend on the processing

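The 22 calls between D2 and D6 had the same direction under all alternatives and were all kept with DESeq2, without the filter, with DESeq2 size factors and with the replicate block, while the number of calls moved widely. For D6 against D2 in Sox1-FOXA2- cells it was 491 (410 higher, 81 lower) with DESeq2's Wald test, 393 without the filter, 152 (120 higher, 32 lower) with the replicate block, 34 with only the compared groups, 44 for a linear trend over days, 43 without the libraries numbered 2 (chosen after seeing the data), 4 in a fit of all 39 sorted libraries, and 11 to 54 with single libraries left out. For D4 against D2 in Sox1-FOXA2- cells the 1 call became, in the same order and without the trend, 226, 85, 17, 0, 3, 0 and 0 to 6, with 4 under DESeq2 size factors. For D6 against D4 in Sox1-FOXA2- cells the 1 call became 185, 125, 14, 0, 4, 0 and 0 to 5. In the comparison of the D2 to D6 change with Sox1+FOXA2- cells the count of 0 became 590 with DESeq2 and 20 without the filter, and was 0 to 1 with single libraries left out. In the comparison with Sox1-FOXA2+ cells the 65 became 1841, 383, 150 with the replicate block, 100 without the libraries numbered 2, 23 in the fit of 39 libraries and 40 to 113 with single libraries left out. The causes were not tested.

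In all, 1423 of the 1713 values recomputed for named genes kept direction and side of the threshold, 98 lost the call, 168 gained it and 24 changed sign, none of them called. The sign changed for Dnmt1 with DESeq2 and with its size factors (0.029 in both), Col4a1 with the replicate block (0.002), Lamb1 without the libraries numbered 2 (-0.032) and in the fit of 39 libraries (-0.023), and Esrrb (0.256) and Pax6 (0.09) without the libraries numbered 2. With single libraries left out it changed for Col4a1 (-0.379 to 0.341), Crabp2 (-0.11 to 1.281), Dnmt1 (-0.189 to 0.061), Esrrb (-0.579 to 0.108), Foxa2 (-0.287 to 9.327), Lamb1 (-0.127 to 0.213), Map2 (-0.188 to 1.23), Ncam1 (-0.068 to 1.641), Pax6 (-0.349 to 0.219), Rarb (-0.949 to 0.227) and Zeb1 (-0.354 to 0.54). DESeq2 size factors moved the median difference in log2 change from Sox1+FOXA2- cells, over all genes, from -0.031 to -0.147. Same-numbered libraries of D2 and D4 (correlations -0.173, 0.302 and 0.118) and of D4 and D6 (0.086, 0.514 and 0.293) did not all deviate together, so for these steps the replicate block stands here alone. Genes at few counts at D2, such as Col3a1 and Acta2, have loosely set fold changes.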

Other observations

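Further genes of secreted and matrix proteins passed the test in the paired fit of D2 and D6 and not without the block. They belong to no list and were chosen after their values were seen. Col12a1, a collagen that coats fibrils, read 227, 87.8 and 33.3 normalised counts at D2, 2800, 1230 and 192 at D4 and 9090, 2320 and 4090 at D6, with a log2 fold change from D2 to D6 of 5.75 in the paired fit (adjusted p = 9.63e-05) and 5.39 without the block (adjusted p = 0.0541). Cxcl12, a chemokine that mesenchymal cells secrete, was at 0, 0 and 5.54 at D2, at 87, 983 and 145 at D4 and at 778, 696 and 194 at D6 (8.35 in the paired fit, adjusted p = 0.0416, against an adjusted p of 0.0945). The growth factor Tgfb2 stood at 125, 22 and 286 at D2 and at 2990, 1750 and 2500 at D6 (4.27, adjusted p = 0.0123, against 0.128 without the block). In all 3 genes every D6 library lay above every D2 library, as in 9.23% of all genes tested.

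Secreted and membrane-bound semaphorins, guidance cues that act through neuropilins and plexins, showed the same split between the fits. Sema3d read 234, 33.6 and 88.7 at D2, 1470, 1460 and 180 at D4 and 3630, 711 and 6210 at D6 (4.95 in the paired fit, adjusted p = 0.0105, against 0.0797). Sema3a stood at 545, 155 and 32.3 at D2 and at 5060, 2680 and 3190 at D6 (4.21, adjusted p = 0.0146, against 0.266). Sema6d went from 185, 165 and 292 to 1250, 1340 and 8440 (3.48, adjusted p = 8.94e-04, against 0.0661). Their spans are over 100 kb, as is that of Foxp2, a transcription factor of neurons, at 533, 141 and 492 at D2 and 3840, 902 and 4800 at D6 (2.86, adjusted p = 0.00166, against 0.296). Of the 32 genes called lower in the paired fit, 1 spans over 100 kb (3.12%), against 61.7% of the 120 called higher. It is Lrp2, an endocytic receptor of epithelia. Lrp2 read 11600, 13900 and 9410 at D2 and 4690, 1660 and 6100 at D6 (-1.80, adjusted p = 0.0209, against 0.294).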
